A study of Drosophila melanogaster with 3 samples.

Results

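Peaks of an anti-GFP chromatin immunoprecipitation in Drosophila embryos formed 3463 core regions, and 532 of them (15.4%) had their summit more than 200 and at most 1000 bp upstream of the nearest protein-coding start site. These 532 upstream core regions are described here. The members were thus chosen by their presence in the peak lists and by their position. A core region is a place called in at least 2 of the 3 replicates' thresholded peak lists, with summits joined when they lay within 150 bp and the position set at the median summit. Regions between start sites that face away from each other at most 1000 bp apart were dropped. The single group consisted of tgo-GFP embryos, aged 0 to 24 h, of a strain in which an insertion targets tgo and expresses a tgo-eGFP fusion protein, in 3 biological replicates. There was no untagged, mutant or treated arm, so peaks that are not specific to the fusion protein cannot be told apart. The material was the whole organism, so that the cell types in which a region was bound are not known.

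Tango, the product of tgo, is the fly counterpart of the vertebrate protein ARNT. It is a bHLH-PAS transcription factor that binds DNA as a pair with a partner of the same family, such as Single-minded in the ventral midline, Trachealess in the airways, Spineless in antenna and leg, or Similar in low oxygen. The DNA element of such pairs contains the core ACGTG, or GCGTG where the partner is Spineless. In flies, the sequence just upstream of a start site holds promoter-proximal elements, and a gene with several start sites has such a stretch for each of them, often within its own introns.

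The rule on position looks at start sites and not at gene bodies, and many of the regions lay inside genes. By annotation, 241 of the 532 regions (45.3%, 95% Wilson interval 41.1 to 49.6%) lay between genes. A further 248 (46.6%, 42.4 to 50.9%) lay inside the gene whose start site was nearest, that is upstream of an internal start site. The last 43 (8.08%, 6.06 to 10.7%) lay inside another gene. With one start site per gene, its most upstream, the number of members was 317 and the share between genes 76.0%. The summit fell in an intron in 271 regions, in a 5′ UTR in 12 and in a 3′ UTR in 8, and in no coding exon. All intervals given here cover counting error only.

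Leading regions are shown first by their DNA, since the low GC content described further on is visible in the letters. They are the 6 strongest members in all 3 lists outside UTRs and outside 1 chromosome arm, whose sequences are not shown. Those passed over among the 12 strongest are HmgZ, Sox14, CG1888, Sesn, pigs and cu. Each sequence is the summit base with 50 bp on either side, on the strand of the nearest gene, from the dm6 genome, and capitals mark its longest unbroken run of A and T. The regions of ph-p, a Polycomb group gene, Rtnl1, a reticulon of the endoplasmic reticulum, and CG4496 lie in introns of those genes. Those of msi, which encodes the RNA-binding protein Musashi, Atf3, a bZIP transcription factor, and E23, an ABC transporter, lie between genes.
ph-p, chrX:2137302-2137402, minus strand: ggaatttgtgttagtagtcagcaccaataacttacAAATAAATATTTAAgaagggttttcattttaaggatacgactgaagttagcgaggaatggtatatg
msi, chr3R:25515843-25515943, plus strand: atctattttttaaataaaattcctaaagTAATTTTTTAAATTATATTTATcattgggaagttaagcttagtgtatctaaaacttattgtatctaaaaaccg
Rtnl1, chr2L:4997614-4997714, minus strand: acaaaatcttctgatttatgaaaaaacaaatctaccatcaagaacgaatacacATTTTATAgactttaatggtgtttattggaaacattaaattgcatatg
Atf3, chrX:1275438-1275538, minus strand: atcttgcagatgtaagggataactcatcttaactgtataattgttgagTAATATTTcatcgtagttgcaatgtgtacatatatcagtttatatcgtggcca
CG4496, chr2L:7188567-7188667, minus strand: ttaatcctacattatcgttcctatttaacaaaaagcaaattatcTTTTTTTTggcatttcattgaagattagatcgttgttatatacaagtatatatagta
E23, chr2L:3355025-3355125, minus strand: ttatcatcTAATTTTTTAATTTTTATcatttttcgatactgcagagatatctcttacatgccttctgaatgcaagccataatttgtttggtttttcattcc
The longest A and T run was 22 bp at msi and 18 bp at E23, and 8 bp at Rtnl1, Atf3 and CG4496. Of the 6 shown, GC content was lowest at msi, with 19.8%, and highest at ph-p and Atf3, with 32.7% each. Among those passed over it was 34.7% at HmgZ, 39.6% at Sox14, 38.6% at CG1888 and 15.8% at cu, which are the extremes of the 20 leading members at Sox14 and cu.

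The core of the Tango element is shown in the next set, since few members carried it. Capitals mark ACGTG, read as CACGT where it stands on the other strand. These are the 4 members with the highest mean signal percentile among those that held it and could be shown. elav encodes a neuronal RNA-binding protein, Fhos a formin that acts on actin, and Ptpmeg2 a protein tyrosine phosphatase.
elav, chrX:523427-523527, minus strand: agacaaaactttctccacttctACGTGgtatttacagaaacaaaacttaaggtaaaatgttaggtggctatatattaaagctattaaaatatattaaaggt
Fhos, chr3L:8766125-8766225, plus strand: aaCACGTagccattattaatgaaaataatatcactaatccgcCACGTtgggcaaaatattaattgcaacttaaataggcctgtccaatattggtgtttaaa
Ptpmeg2, chrX:9640791-9640891, minus strand: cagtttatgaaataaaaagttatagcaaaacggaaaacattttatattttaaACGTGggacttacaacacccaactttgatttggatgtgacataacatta
CG9743, chr3R:30203346-30203446, minus strand: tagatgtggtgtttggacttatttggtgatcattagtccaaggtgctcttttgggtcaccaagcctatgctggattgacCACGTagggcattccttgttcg
Fhos held the core 2 times within its window, and the other 3 held it once each. The Fhos and Ptpmeg2 windows lie in introns of those genes, that of elav in an intron of a neighbouring gene, and that of CG9743 between genes.

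The sequence TATCGA forms part of the element shared by the factors DREF and BEAF-32, which sit at many housekeeping promoters. It is shown at brat, which encodes a translational repressor, and at for, which encodes a cGMP-dependent protein kinase, both inside introns. They are the strongest members in all 3 lists that held it and could be shown, apart from E23, printed above, which held it too. Capitals mark the match, here as TCGATA on the gene's strand.
brat, chr2L:19165093-19165193, plus strand: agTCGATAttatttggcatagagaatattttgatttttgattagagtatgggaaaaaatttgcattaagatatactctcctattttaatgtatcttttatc
for, chr2L:3632462-3632562, minus strand: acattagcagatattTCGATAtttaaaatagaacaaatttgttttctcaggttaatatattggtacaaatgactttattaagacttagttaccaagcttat
Both windows had a GC content of 24.8%.

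The thresholded lists held 3617, 4759 and 3027 peaks in replicates 1, 2 and 3, with median widths of 340, 340 and 350 bp. The read depth is unknown, and no precision can be given for a single peak. The upstream rule was met by 15.7%, 14.9% and 14.6% of the 3 lists' summits (15.1 ± 0.547%, SD, n = 3). Replicate 1 contained 493 of the 532 members, replicate 2 contained 522 and replicate 3, the shortest list, contained 408.

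In all, 359 members (67.5%, 63.4 to 71.3%) were present in all 3 lists, against 65.6% of all core regions, so their share was near the background. The share was 72.8% at one-way start sites, which are core regions -200 to 200 bp from a start site with no divergent partner, 76.4% between divergent start sites and 58.3% among core regions over 1000 bp from any start site. Being in the lists chose the members, so these shares are a description. Of the members in 2 lists, 124 were missing from replicate 3, 39 from replicate 1 and 10 from replicate 2. The longer ranked lists, which also hold candidates that did not pass, had a candidate within 150 bp for 111 of the 124, 33 of the 39 and 9 of the 10. Those in replicate 3 had a median irreproducible discovery rate (IDR) of 0.216, those in replicate 1 one of 0.122 and those in replicate 2 one of 0.115. A low IDR marks a peak that recurs between paired rankings, and most of the missing members were thus listed in the remaining replicate as candidates that did not pass. The ranked lists held 35134, 75958 and 33491 candidates in replicates 1, 2 and 3. No such share is given here for other core regions, so these counts do not set the members apart.

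The deposited signal value of the members ran from 15.0 to 1125 in replicate 1 with a median of 113, from 21.6 to 1139 in replicate 2 with a median of 123, and from 35.1 to 1098 in replicate 3 with a median of 103. The authors' unit is not stated, so the signal served for ranks within each list, as a percentile where 100 is the strongest. The members' mean percentile had a median of 57.3, with quartiles of 36.5 and 81.0. It was 55.9 at one-way start sites, 59.5 between divergent start sites and 48.2 over 1000 bp from any start site. Among the 100 core regions with the highest percentile in 3 lists, 18 were members, near their share of 15.4% of all core regions.

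The strongest member lay in an intron of ph-p, at chrX:2137171-2137532 with its summit at -497 bp, and ranked 6 among all core regions. Its signal was 1125, 1139 and 1098 in replicates 1, 2 and 3, and its percentile within each list was 99.8, 99.8 and 99.9. The next was in an intron of HmgZ, which encodes an HMG-box chromatin protein, with signals of 976, 896 and 659. Then came msi with 766, 798 and 578, and Sox14, a Sox family transcription factor, with 709, 716 and 576. Replicate 3 had the lowest value at each of these 4. The value in replicate 3 was also the lowest at the other leading members, as the plot of signal by gene shows, and signal was not made comparable between lists.

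The 20 leading members, all in 3 lists, had mean percentiles of 96.8 and above. Transcription factor genes among them were Sox14, Atf3, org-1, a T-box gene, and bowl, a zinc finger gene of the odd-skipped family. RNA-binding proteins were represented by msi, elav and papi, a partner of the piRNA pathway. Enzymes and membrane proteins were represented by cu, the fly nocturnin gene, aay, a phosphoserine phosphatase, Rtnl1 and E23. Others were chif, a Dbf4-type regulator of DNA replication, Sesn, which encodes sestrin and shares its start with CG46429, pigs, mlt, CG1888, CG4496 and the pair CG8788 and CG44286. By place, 8 of the 20 lay inside the gene of the start site, 7 between genes and 5 inside another gene. In 12 of the 20 the summit was nearer than 300 bp.

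**Figure D1:**
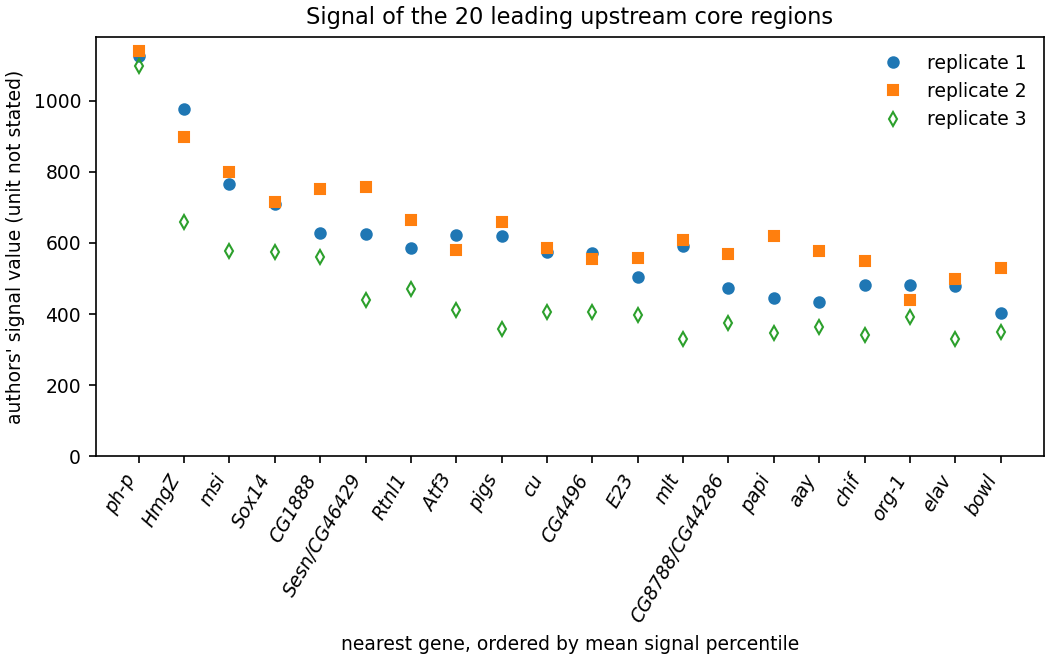
Authors' signal value (vertical axis, linear, unit not stated) of the 20 upstream core regions with the highest mean within-list percentile, with the nearest gene on the horizontal axis and 1 symbol per replicate. The 3 symbols of ph-p lie close together at 1125, 1139 and 1098, and replicate 3 lies below the other 2 at each gene shown.

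Within the stretch that the rule allowed, the members crowded towards the start site. Their median distance was -371 bp, with quartiles of -558 and -271 bp. The density was 155 core regions per Mb of sequence (95% Poisson interval 133 to 179) in the 100 bp that begin at -300 bp, 95.7 (78.6 to 115) in the 100 bp that begin at -400 bp and 64.4 (50.3 to 81.3) in those that begin at -500 bp. It was 25.2 per Mb (15.6 to 38.6) in those that begin at -1000 bp. Density thus declined step by step away from the gene, although of neighbouring bins the intervals were apart only between the 2 nearest the gene.

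Over the whole stretch of 8.10 Mb the density was 65.6 per Mb (60.2 to 71.5), against 77.9 at one-way start sites and 14.7 (14.0 to 15.4) over 1000 bp from any start site. At the matching distances on the other side, over 200 to 1000 bp downstream, it was 18.2 per Mb (15.9 to 20.8). The sequence on the upstream side was therefore the denser, and the downstream interval also lay above the distal one. Just beyond the near bound the density was higher still, with 215 per Mb (190 to 242) in the 100 bp that begin at -200 bp, so the near bound cuts through a slope.

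**Figure D2:**
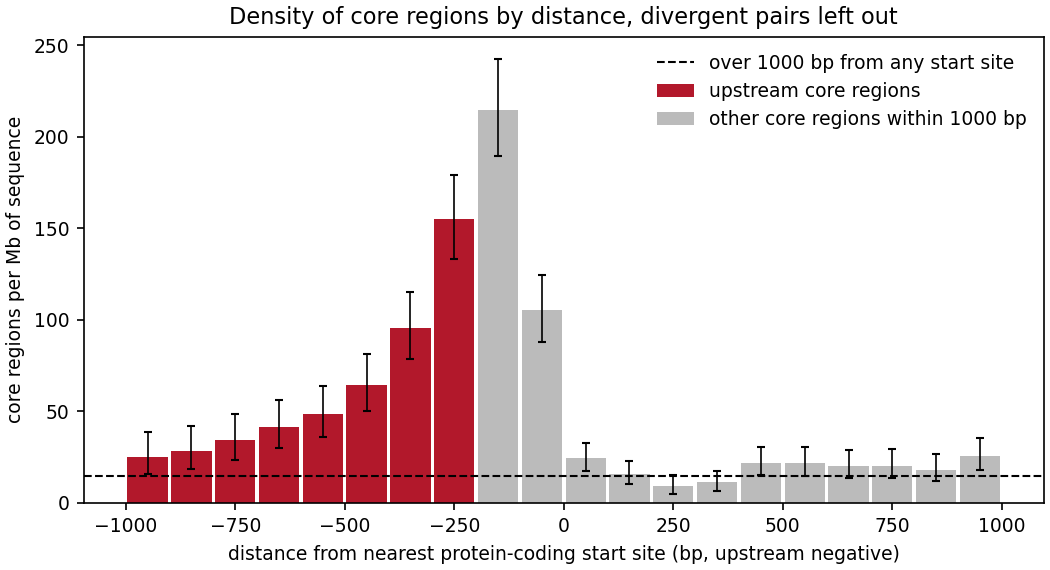
Core regions per Mb of sequence (vertical axis) in bins of 100 bp by distance from the nearest protein-coding start site (horizontal axis, bp), with divergent pairs left out. Red bars are the upstream core regions, grey bars the other core regions within 1000 bp, whiskers 95% Poisson intervals, and the dashed line the density over 1000 bp from any start site; red bars fall from 155 per Mb beside the near bound to 25.2 at the far one.

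The members just inside the near bound, all at the first position allowed, belonged to 14-3-3zeta, Svil and CG6231, with mean percentiles of 20.7, 87.3 and 18.9. Just outside it were core regions of CG14853 at -200 bp, Tsp29Fb at -199 bp and CG2747 at -199 bp, with percentiles of 63.2, 59.7 and 50.5. At the far bound, CG1142 at -997 bp, Cad89D at -990 bp and PAN3 at -987 bp were inside, with 45.6, 33.1 and 54.9. Tim17a2 and CBP, both at -1004 bp, and Tak1 at -1016 bp were outside, with 48.3, 73.6 and 29.9. Percentiles on the 2 sides of each bound overlapped.

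The density was about the same inside genes and between them. It was 65.4 per Mb inside genes, which make up 54.9% of the sequence that meets the rule, and 66.0 per Mb between genes. Of the 241 members between genes, 143 had a neighbouring gene that runs in the same direction, a median of 1383 bp away. The other 98 had a neighbour facing away, a median of 3860 bp away. The rule had dropped regions between start sites facing away at most 1000 bp apart, which bears on this count and distance.

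The X chromosome carried more members for its length of upstream sequence. It held 124 members, or 88.2 per Mb (73.4 to 105), against 406 on the large autosome arms, or 61.4 per Mb (55.6 to 67.7). The X to autosome ratio was 1.42, 1.44 and 1.47 in replicates 1, 2 and 3 (1.44 ± 0.0267, SD, n = 3). The replicates share most of the regions counted, so the SDs of these ratios are smaller than those of independent sets. The ratio at one-way start sites was 1.09, 1.08 and 1.04 (1.07 ± 0.0261), that between divergent start sites was 0.608 ± 0.0104 and that over 1000 bp from any start site was 1.32 ± 0.0467. The ratio of the upstream regions was above that of one-way start sites by 0.376 ± 0.0521 and above that of the distal regions by 0.126 ± 0.0733, in 3 of 3 replicates each. An exact sign-flip test over the replicates gave a two-sided p of 0.25 for each of the 3 comparisons, which is the smallest that 3 replicates allow, and their adjusted p was also 0.25. The sex of the embryos was not collected, and chromosome 4 and the Y held 2 and 0 members.

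At most members, the start site itself had no core region. Of the 532 members, 17 (3.20%, 2.01 to 5.06%) had another core region within 200 bp of their own start site, and 7 had a peak there in a single list. At 323 (60.7%, 56.5 to 64.8%) no ranked list of any replicate had even a candidate there. Over all 19276 protein-coding start sites, 8.20% had a core region within 200 bp and 50.4% had no ranked candidate. Those sites include divergent pairs at most 1000 bp apart, while the rule dropped regions between such pairs. The rule thus bears on the gap between these shares.

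Candidates of 1 ranked list were never closer than 199 bp to each other, which limits what can be seen beside a near member. Among the 291 members within 400 bp of the start site, 2 had a core region at the start site. For members more than 400 bp away, the start-site window lies farther off than 199 bp. Among the 122 more than 400 and at most 600 bp away, 2 had a core region there (1.64%, 0.451 to 5.78%). That interval lies below the 8.20% of all start sites. Among the 119 more than 600 bp from the start site, 13 did (10.9%, 6.50 to 17.8%), an interval that holds the 8.20%. Of these 119 members, 38.7% had no candidate. Of the 20 leading members, 14 had no ranked candidate at the start site, while mlt and chif had a peak there in all 3 lists. A non-coding start site within 200 bp of the summit was found for 6 members (1.13%, 0.518 to 2.44%), against 15 at one-way start sites (3.21%, 1.96 to 5.23%). The share was 0.796% between divergent start sites and 1.73% in distal regions, so the members lay between these 2 classes. One of the 6 was beside kek4, a member of the kekkon family of transmembrane proteins, where it belonged to a U2 small nuclear RNA gene.

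The DNA under the summits was poor in G and C. These windows of the 532 members, with 50 bp on either side of the summit, had a mean GC content of 30.5%, ranging from 12.9 to 66.3%. Windows 500 bp to either side had 42.3%, and all sequence meeting the upstream rule, sampled every 100 bp, had 39.9%. The longest run of A and T had a median of 10 bp at the summit, 7 bp in the flanks and 8 bp in all such sequence.

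Classes were compared by replicate, over the regions present in that replicate's list and at its own summits. The replicates share most of these regions, so their spread is smaller than that of independent sets. GC content by replicate was 30.2, 30.8 and 31.1% in upstream regions, against 32.5, 33.4 and 34.1% at one-way start sites. The groups did not overlap, and the difference was -2.66 ± 0.362 percentage points (SD over 3 replicates; exact sign-flip p = 0.25, adjusted p = 0.359 over 33 comparisons). Against distal regions it was -0.255 ± 0.208 points, with means of 30.7% upstream and 30.9% over 1000 bp from any start site. The profile of distal regions also dipped, with 30.3% at the summit in 51 bp windows and 45.2% at 200 bp on the outer side. The dip of the members was narrow, since in such windows the members between genes had 41.9% at 200 bp away from the start site, 30.9% at the summit and 45.1% at 200 bp towards it. Members inside the gene of the start site had 42.4, 29.4 and 47.1% at the same places. One-way start-site regions had 37.1, 32.4 and 46.6%, so that their outer side was the lowest of these sets.

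**Figure D3:**
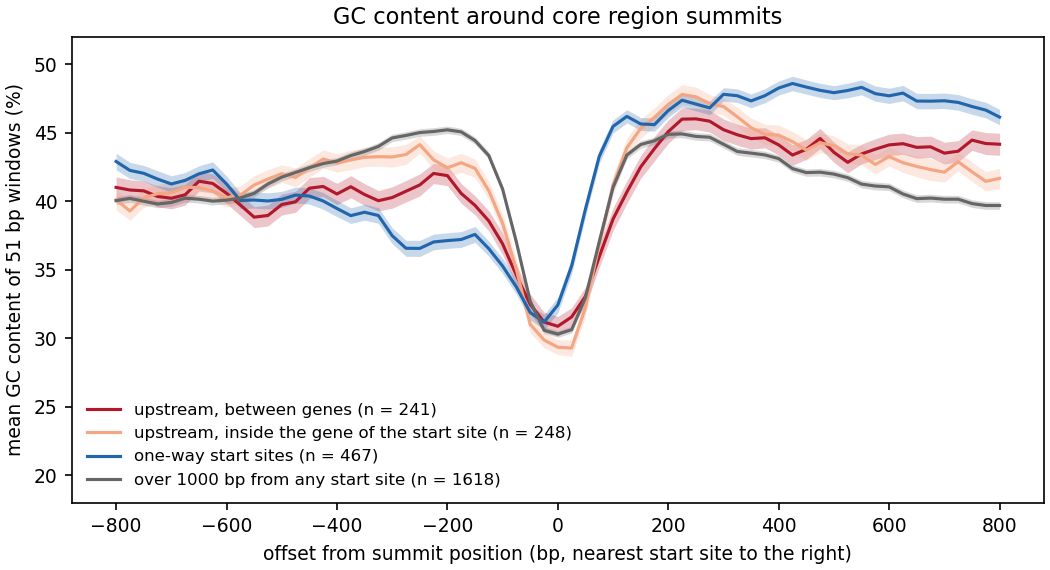
Mean GC content in 51 bp windows (vertical axis, %, starting at 18) by offset from the summit position (horizontal axis, bp, the nearest start site to the right) for upstream core regions between genes and inside the gene of the start site, one-way start-site regions and distal regions. Lines are means over regions and shading the standard error; all 4 lines dip at the summit, to 30.9% for upstream regions between genes and 29.4% for those inside the gene.

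Elements of Tango pairs were not common at the members. ACGTG stood in 36 of the 532 windows (6.77%, 4.93 to 9.23%), on either strand, against 9.31% of the flank windows and 8.11% of all windows of this length that meet the rule. The palindrome CACGTG, which contains ACGTG on both strands, stood in 5. GCGTG stood in 23 (4.32%, 2.90 to 6.40%), against 15.7% of flanks and 10.3% of all such windows. Of the 44 matches of ACGTG in members, 21 were within 25 bp of the summit, with a median distance of 28.5 bp. Windows that are poor in G and C hold such words less often, and the part of base composition in these shares was not tested.

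By replicate, ACGTG stood in 7.10, 6.71 and 6.62% of upstream windows, against 5.32, 7.02 and 6.48% at one-way start sites and 4.01, 4.80 and 4.27% in distal regions. Upstream and start-site values overlapped, with a difference of 0.535 ± 1.10 points (exact p = 0.75). Upstream and distal values did not overlap, with a difference of 2.45 ± 0.597 points and 3 of 3 replicates higher (exact p = 0.25, adjusted p = 0.359). GCGTG averaged 4.20 ± 0.271% upstream and 7.83 ± 0.442% at one-way start sites, lower upstream in 3 of 3 replicates. It averaged 5.72 ± 1.65% between divergent start sites and 4.83 ± 0.551% in distal regions, with upstream higher in 1 of 3 replicates against each.

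TATCGA, of the DREF and BEAF-32 element, stood in 4.06, 3.45 and 2.21% of upstream windows, against 9.72, 7.24 and 7.25% at one-way start sites. Over regions, 17 members held it (3.20%, 2.01 to 5.06%), against 7.92% at one-way start sites (5.80 to 10.7%). The replicate values did not overlap, and the difference was -4.83 ± 0.957 points (exact p = 0.25, adjusted p = 0.359). Between divergent start sites the mean was 9.01 ± 0.401%, and in distal regions 3.67 ± 0.120%, which the upstream mean of 3.24 ± 0.943% overlapped. All sequence meeting the upstream rule held it in 3.95% of windows.

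GAGAG, the repeat bound by GAGA factor, differed the other way. It stood in 50 of the 532 members, and by replicate in 8.93, 10.5 and 8.58% of upstream windows, against 5.56, 5.70 and 5.96% at one-way start sites, a difference of 3.61 ± 1.13 points with no overlap (exact p = 0.25, adjusted p = 0.359). The mean between divergent start sites was 4.44 ± 0.212%, and that of distal regions was 8.32 ± 0.505%. Flanks of the members held it in 16.1% of windows and all such sequence in 11.2%, so the summits were below both. GATAA, the core of the GATA factor element, averaged 25.6 ± 0.529% upstream, 23.3 ± 0.681% at one-way start sites, 25.01 ± 1.11% between divergent start sites and 23.8 ± 0.514% in distal regions. The upstream and divergent values overlapped, and all sequence meeting the rule held it in 20.5% of windows. CACTG, a word taken up because of earlier results of these data, averaged 15.2 ± 2.25% upstream, 19.6 ± 2.43% at one-way start sites, 15.8 ± 1.73% between divergent start sites and 19.9 ± 1.79% in distal regions. Over the members it stood in 14.5% of windows, near the 16.1% of flanks and the 15.2% of all sequence meeting the rule. Within the members it stood in 10.9% of windows inside the gene of the start site (7.59 to 15.4%). Between genes it stood in 17.8% (13.5 to 23.2%), and the 2 intervals overlapped.

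TATAA stood in 44.2% of member windows, against 20.6% of flanks and 27.1% of all such sequence, beside the lower GC content of the summits. By replicate it averaged 43.5 ± 2.01% upstream, 38.6 ± 1.47% at one-way start sites, 48.1 ± 0.352% between divergent start sites and 44.5 ± 1.07% in distal regions. CAGGTA, of the early embryonic factor Zelda, stood in 12 members (2.26%), against 2.27% of all sequence meeting the rule. CAGCTG, an E-box of other bHLH factors, stood in 11 (2.07%, 1.16 to 3.66%), against 3.92%. Of 33 comparisons of GC content and 10 words against 3 classes, none reached 0.05, since 0.25 is the smallest p the design allows, and the smallest adjusted p was 0.359.

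**Figure D4:**
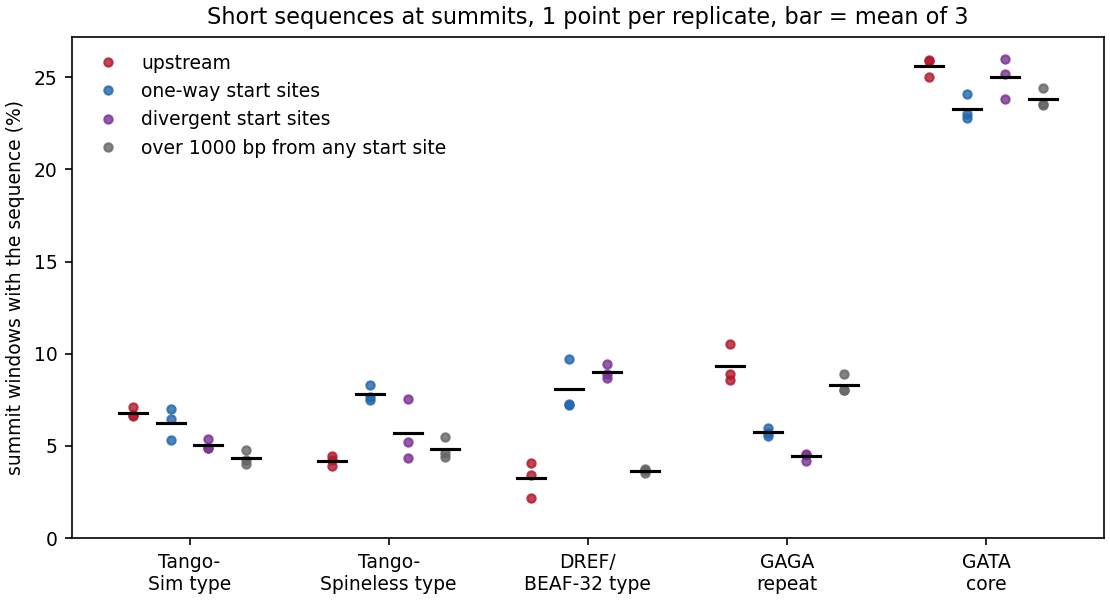
Share of summit windows (50 bp on either side) that hold each of 5 short sequences (vertical axis, %, from 0) in upstream regions, one-way start-site regions, divergent regions and distal regions, left to right within each element. Points are the 3 replicates and black bars their means; for the DREF and BEAF-32 type the upstream points lie below those of both start-site classes, and for the GAGA repeat above them.

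The genes whose start site was nearest to a member were long and had several start sites. There were 498 such protein-coding genes, or 3.57% of 13968, against 466 genes, or 3.34%, for one-way start-site regions. Their median length was 10607 bp (quartiles 4556 and 23057 bp), against 4110 bp for genes of one-way start-site regions, 2493 bp for those of divergent regions, 9114 bp for those of distal regions and 2164 bp for all protein-coding genes. Of the 498 genes 328 (65.9%) had 2 or more start sites, against 52.6% of genes of one-way start-site regions and 26.5% of all genes. A gene with more than 1 start site can have more sequence that meets the rule, and the part of this in these shares was not tested. Among all genes with 2 or more start sites 8.87% had a member, and among those with 1 it was 1.66%. Divergent regions were nearest to 4.55% of all protein-coding genes and distal regions to 7.53%.

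Most genes, 451 of 498, had 1 member, and 43 had 2. Moe, which encodes moesin, a linker of actin to the membrane, had 4, at -449, -241, -967 and -289 bp of start sites within the gene. dnc, which encodes the dunce cAMP phosphodiesterase, Rtnl1 and Svil, a supervillin gene, had 3 each, all inside the gene. The 3 of dnc had mean percentiles of 87.2, 95.1 and 72.3, and those of Rtnl1 98.4, 54.6 and 91.7, so members of 1 gene ranged widely.

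Genes of signalling pathways were near a member more often than all genes, and near a distal region at least as often. For the Notch, Dpp and JAK-STAT pathways it was 7 of 27 genes (25.9%, against 3.57% of all genes), with none near a one-way start-site region and 9 (33.3%, against 7.53%) near a distal one. With one start site per gene the count was 3, and with the near bound at 300 bp it was 4. For the EGF receptor pathway it was 6 of 22 (27.3%, 13.2 to 48.2%), with 1 gene near a one-way start-site region and 8 (36.4%) near a distal one. In both lists the upstream and distal counts had overlapping Wilson intervals. In these lists 13 of 27 and 13 of 22 genes had 2 or more start sites, and so did 4 of the 7 and 5 of the 6 genes with a member; the part of gene structure in these counts was not tested. The list members' regions had median percentiles of 65.4 and 56.8, near the 57.3 of all members.

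In the Notch and Dpp pathways the strongest regions were those of numb, which encodes an inhibitor of Notch, and Mad, the Smad protein that carries the Dpp signal. numb had signals of 343, 291 and 316 with the summit at -212 bp, and Mad 232, 290 and 240 at -676 bp, both in introns of the gene. neur, a ubiquitin ligase needed for Notch ligand activity, had 181, 202 and 120. brk, a repressor of Dpp targets, had 123, 114 and 109, with the region in an intron of another gene. The others were the Notch coactivator mam, the receptor N and the glycosyltransferase fng.

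In the EGF receptor pathway the strongest regions were those of 2 inhibitors. Mkp3, a phosphatase that acts on the MAP kinase, had 261, 350 and 179 at -434 bp, and aos, which encodes the secreted inhibitor Argos, had 216, 187 and 138 at -285 bp. The transcription factor genes pnt and aop, which respond to the pathway in opposite ways, followed. pnt had 104.3, 101.2 and 101.3, and aop had 99.4, 116 and 78.8. The ligand gene spi was in 2 lists, with 67.6 and 108 in replicates 1 and 2, and stet, a rhomboid protease gene, had 74.2, 75.5 and 74.1.

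Among the 11 bHLH-PAS genes, 3 had a member (gce, trh and dysf; 27.3%, 9.75 to 56.6%, against 3.57% of all genes). In the same list 1 gene had a one-way start-site region and 4 a distal one. Of the 11 genes 8 had 2 or more start sites, and so did all 3 with a member. The part of gene structure in this count was not tested. gce, a juvenile hormone receptor, had 464, 455 and 245 at -531 bp, in an intron. trh, the gene of Trachealess, had 74.1, 100.9 and 62.9, and dysf, which encodes Dysfusion, needed where tracheal branches fuse, had 86.3, 73.9 and 57.7. Replicate 3 had the lowest value at all 3 genes. The tracheal list had 2 of 23 genes with a member (pnt and trh; 8.70%, Wilson interval 2.42 to 26.8%) and 8 with a distal region. The ventral midline list had 3 of 19 (aos, pnt and spi; 15.8%, 5.52 to 37.6%) and 8 with a distal region. Of the 16 genes for ecdysone and juvenile hormone 2 had a member (12.5%, 3.50 to 36.0%) and 8 a distal region. The 2 were gce and EcR, the ecdysone receptor gene, with 74.5, 58.8 and 51.5. Of the 3 intervals the tracheal and the hormone one held the 3.57% of all genes, and distal regions were the more frequent in each list. These lists overlap, so the counts are not separate.

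Cell cycle and replication genes had 4 of 31 (12.9%, 5.13 to 28.9%, against 3.57% of all genes), with none near a one-way start-site region and 2 near a distal one. Of the 31 genes 14 had 2 or more start sites, and so did all 4 with a member. Dp, the partner of E2F, had 299, 300 and 155 at -206 bp, and CycE, which drives entry into S phase, had 152, 165 and 139 at -477 bp, both in introns. Cdk4 and fzr, an activator of the anaphase-promoting complex, were in 2 lists each. Glycolysis had 2 of 12 (16.7%, 4.70 to 44.8%, against 3.57% of all genes), with 4 genes near a one-way start-site region and 1 near a distal one. The 2 with a member were Pgk, phosphoglycerate kinase, with 206, 182 and 183, and PyK, pyruvate kinase, with 113, 123 and 62.6. All 12 glycolysis genes had 2 or more start sites, and the part of gene structure in the counts of both lists was not tested.

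Mesoderm and muscle genes had 2 of 17 with a member and 4 with a distal region, and the upstream interval of 3.29 to 34.3% held the 3.57% of all genes. tin, the homeobox gene of the heart, had 325, 413 and 335 at -213 bp, between genes, and htl, an FGF receptor gene, had 68.4 and 78.6 in replicates 1 and 2. Polycomb and trithorax genes had 2 of 21 (2.65 to 28.9%, which held the 3.57%), against 3 with a one-way start-site region and 6 with a distal one. They were the neighbouring pair ph-p and ph-d, and ph-d had 166.6, 201.2 and 159.2 at -834 bp, well below ph-p. Among the Hox genes and their cofactors it was 1 of 10 (1.79 to 40.4%, which held the 3.57%), against 5 with a distal region. The gene with a member was Dfd, with 66.1 and 94.99 in replicates 1 and 2.

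No gene of 5 lists had a member. Of the 93 cytosolic ribosomal protein genes 0 did, with an upper Wilson limit of 3.97% that lies above the 3.57% of all genes. Of them 16 had a one-way start-site region, or 17.2% (10.9 to 26.1%), 30 a divergent one (32.3%) and 2 a distal one (2.15%). Over all genes these 3 shares were 3.34%, 4.55% and 7.53%. The rule dropped regions between divergent start sites, which bears on this zero. Of the 93 genes 45 had 2 or more start sites, and the part of gene structure in their zero was not tested. Of the 73 mitochondrial ribosomal protein genes 0 had an upstream region and 10 a divergent one (13.7%, against 4.55% of all genes). The upper Wilson limit of that zero was 4.999%, above the 3.57% of all genes. Of these 73 genes 6 had 2 or more start sites, and the part of gene structure in their zero was not tested. The 15 chromatin architecture genes had 0 (upper Wilson limit 20.4%), against 4 with a one-way start-site region. The 21 segmentation genes had 0 (upper limit 15.5%), against 1 with a one-way start-site region and 5 with a distal one. The 119 odorant and gustatory receptor genes had 0 (upper limit 3.13%), against 0 with a one-way start-site region and 4 with a distal one. Of these 119 genes 9 had 2 or more start sites. Among all genes with 1 start site 1.66% had a member, a share below that limit. The part of gene structure in this zero was not tested. At a share of 3.57%, lists of 15 and 21 genes hold less than 1 such gene, so their zeros do not set them apart from all genes.

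**Figure D5:**
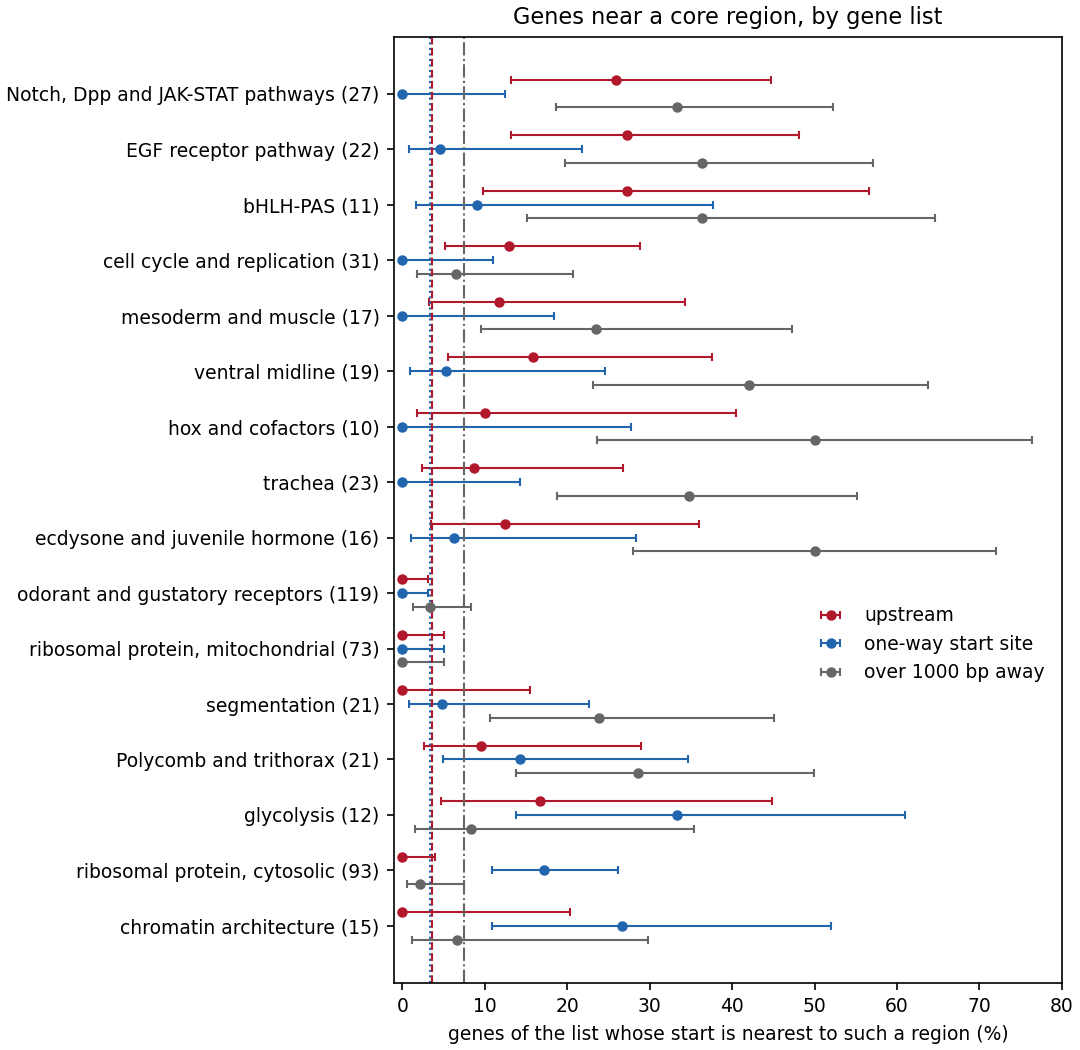
Share of the genes of each list (vertical axis, number of genes in brackets) whose start site was nearest to an upstream core region (red, upper), a one-way start-site region (blue, middle) or a distal region (grey, lower), in % (horizontal axis), with 95% Wilson intervals. The red dashed, blue dotted and grey dash-dotted lines mark the shares over all protein-coding genes, 3.57%, 3.34% and 7.53%; the Notch and EGF receptor pathway lists have red points at 25.9 and 27.3% and grey ones at 33.3 and 36.4%, and the cytosolic ribosomal protein list has a red point at 0 and a blue one at 17.2%.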

How the data were processed

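Per the labels, the series is chromatin immunoprecipitation with an anti-GFP antibody, with DNA sonicated to 200 to 800 bp. For each replicate the authors deposited a thresholded and a longer ranked peak list on dm6, called per replicate. The deposited signal value of each peak has no stated unit and served only for ranks within a list, and the deposited global IDR is on a −log10 scale. No aligner or peak caller is named in the sources used here.

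Summits within 150 bp were joined across lists, and regions in at least 2 of the lists were kept. Start sites came from the protein-coding transcripts of Ensembl release 115, and sequences from the NCBI assembly of the same genome release 6. GC content and words were counted in windows of 50 bp on either side of the summit, on both strands. Classes were compared over the 3 replicates with a two-sided exact sign-flip test, with Benjamini-Hochberg adjustment. Gene lists were counted with no test. Python 3.11.15, numpy 2.4.6 and scipy 1.17.1 were used, and the functions were tested on simulated data.

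The members, lists and words were chosen with earlier results of these data known. Named genes are the nearest genes of the 20 members in all 3 lists with the highest mean percentile, up to 4 members per gene list (lists are also counted in full, and other members are named after their values were seen), the 3 members and 3 other core regions at each bound, genes with 3 or more members, and genes of the sequences shown. Alternatives were other demands on support, each replicate left out, and other joining distances, positions, start sites, divergent gaps, bounds and windows. The labels call the replicates biological, and do not say how embryos were divided between them.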

Additional observations from a re-analysis of the deposited data

How the results depend on the processing

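No paired analysis was possible because there is only 1 group, so no groups share replicate numbers, while classes of regions were set against each other within each replicate throughout. Of 12 alternatives, each moving 1 choice, the 2 on window length do not bear on the number of members (532). Of the other 10, 2 moved that number by over 1.5 times, to 317 with one start site per gene and to 350 with the near bound moved from 200 to 300 bp. Leaving out a replicate gave 364 to 490 members. The GC difference from distal regions, -0.255 points, changed sign to 0.637 with one start site per gene, 0.0735 with the moved bound and 0.0611 in 51 bp windows. The ACGTG difference from one-way start sites, 0.535 points, was -3.87 in windows of 100 bp on either side. The other 7 differences in GC content and words kept their sign under all alternatives run, but not their size. With one start site per gene the GC difference from one-way start sites, -2.66 points, was -1.14, and that of CACTG, -4.42 points, was -1.64 ± 4.89. The GATAA difference, 2.31 points, was 0.207 ± 0.664 in 51 bp windows. The TATCGA difference, -4.83 points, was -9.72 in windows of 100 bp on either side.

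With one start site per gene the share of members with another core region at the start site (3.20%) was 3.79%, that with a non-coding start site nearby (1.13%) was 1.89%, the share between genes (45.3%) was 76.0%, the X to autosome ratio (1.44) was 1.30, and the Notch, Dpp and JAK-STAT genes with a member (7) were 3. With the moved bound the first of these was 4.57%, the share between genes 44.6% and the Notch count 4. In all 3 lists the values were 2.23% at the start site and 43.5% between genes. Joining at 50 bp gave 2.95% at the start site and a ratio of 1.42. The strongest summit gave 2.63% at the start site, divergent gaps to 2000 bp gave 3.55%, and the conservative list gave 44.3% between genes. With a replicate left out, the start-site share was 2.27 to 3.06%, the non-coding share 1.22 to 1.51%, the share between genes 44.5 to 45.1% and the ratio 1.40 to 1.51.

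The cause of these changes was not tested. The read depth is unknown. With 3 replicates the smallest p was 0.25, and a p above 0.05 does not show that values were alike.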

Other observations

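The 43 genes with 2 upstream core regions included pum, which encodes the translational repressor Pumilio, ush, a zinc finger partner of GATA factors, NFAT, Tollo, a Toll-family receptor gene, and the muscle genes Msp300, tmod and rols. They are named for their count of members, after the values were seen. At ush both regions were upstream of a start site in the gene's direction, at -553 and -562 bp, with mean percentiles of 31.5 and 33.9, below the members' median of 57.3. At Fhos the members were far apart in strength, with mean percentiles of 96.1 at -267 bp and 17.2 at -821 bp of the same start site.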
